A study of Cavia porcellus with 24 samples.

Results

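KIF21B and NAV1 are genes of the neuronal microtubule system, and the cytosines measured around one methylation site cluster in each were followed here in the hippocampus and whole blood of guinea pigs. The members were all listed cytosines of both DNA strands in an interval of scaffold DS562867.1 of the guinea pig genome build cavPor3 for each gene. Each interval was chosen by measured values: it spans the cytosines that the study named for the gene because methylation changed at the same position in both tissues, with 2 kb added on each side. The rule gave 116 cytosines, 24 for KIF21B and 92 for NAV1, of 3233055 listed in either tissue. All 24 of KIF21B and 87 of NAV1 were listed in both tissues.

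DNA came from Hartley guinea pigs whose mothers had received betamethasone, a synthetic glucocorticoid (sGC), at 1 mg/kg, or saline as the control. The mothers were injected late in pregnancy, first at day 40/41 of gestation, again at day 50/51 and a last time at day 60/61, so that there were 3 courses. One female offspring was taken per litter on postnatal day 14, with 6 per treatment, and both tissues came from the same 12 animals. Methylation was read by reduced representation bisulfite sequencing (RRBS), in which an enzyme that cuts at CCGG enriches CpG-rich fragments and bisulfite converts unmethylated cytosines.

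The deposited values were sums over the 6 animals of a group, which gave 1 pool per tissue and treatment, and the spread between animals was therefore not known. A single animal with an equal share of the reads could move a pool by up to 16.7 percentage points. The intervals given in brackets are 95% intervals that cover counting error only (Wilson for a level, Newcombe for a difference). Across the genome the median coverage per cytosine was 79 to 98 reads in the 4 pools, with a minimum of 10. Hippocampus and blood are mixtures of cell types, so a level in a pool is an average over cells, and a shift in cell composition and a shift within cells cannot be told apart.

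KIF21B encodes a kinesin, a motor protein that travels along microtubules toward their growing ends, and it is found in the dendrites of neurons, where it affects microtubule growth. NAV1, neuron navigator 1, encodes a protein that binds growing microtubule ends and acts in neuronal migration and neurite outgrowth. Methylation of a CpG is usually present on both strands, because the enzyme that follows the replication fork copies the mark of the old strand to the new one. CpG-rich stretches near gene starts are mostly unmethylated, and methylation of CpGs elsewhere differs between neural and blood cells at many positions.

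The cytosines that carried the name KIF21B spanned 192 bases, DS562867.1:21373527-21373718, hereafter the core. The core held 22 listed cytosines, 12 on the plus strand and 10 on the minus strand, and the names in the study's table were all on the plus strand. The rest of the interval, DS562867.1:21371527-21375718, held only 2 more listed cytosines, both on the minus strand just after the core. The NAV1 core, DS562867.1:20824030-20824154, covered 125 bases with 20 cytosines, 6 on the plus and 14 on the minus strand, and the named ones were all on the minus strand. Its interval, DS562867.1:20822030-20826154, held 67 further cytosines listed in both tissues. The cores lay 549373 bases apart on the same scaffold. Whether they fall in exons, introns or untranslated regions was not analysed here.

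The KIF21B core was nearly unmethylated in the hippocampus of controls and mostly methylated in blood, and both tissues were higher with sGC. In the hippocampus the level was 2.00% (1.33 to 3.00) in the control pool and 12.1% (10.3 to 14.1) in the sGC pool. In blood it was 75.5% (72.4 to 78.3) in controls and 94.1% (92.4 to 95.4) with sGC. The order of the 4 pools was hippocampus control, hippocampus sGC, blood control, blood sGC, and none of these counting intervals overlapped. The difference sGC less control was 10.1 points (8.08 to 12.2) in the hippocampus and 18.6 points (15.3 to 22.0) in blood. This is the contrast that chose the interval, so the differences are descriptions without a test.

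The pattern was shared by every cytosine of the KIF21B core. All 22 were higher with sGC than in controls in both tissues. Of these, 12 were the cytosines named because they changed in both tissues, and the other 10 were minus-strand partners in the same CpGs. The agreement was thus favoured by the choice of the interval, and nothing is read from it. Single cytosines ranged from 0% to 6.93% in the control hippocampus and from 8.60% to 18.0% in the sGC hippocampus, so that these pools did not overlap. In blood they ranged from 53.8% to 81.5% in controls and from 66.0% to 99.2% with sGC, and these ranges did overlap. Each cytosine was covered by 92 to 206 reads in each pool. Cytosines within a read length of each other were read from the same molecules, and the 24 cytosines formed 7 groups of shared coverage, so they are not separate observations.

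**Figure D1:**
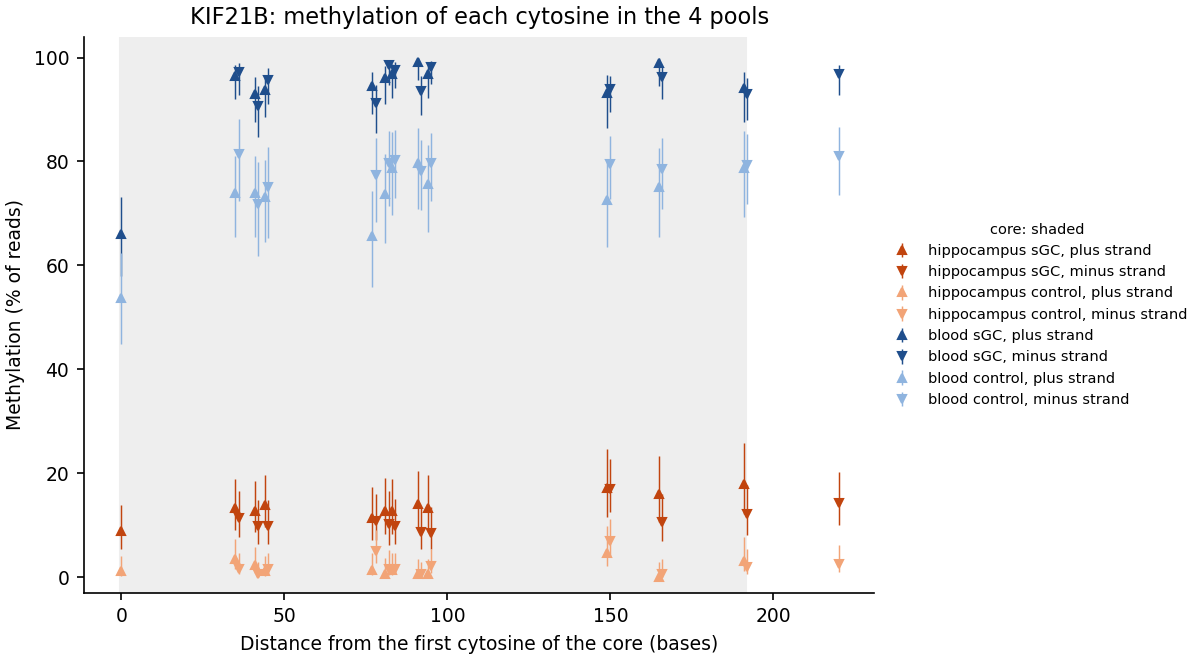
Methylation in percent (vertical axis) of each KIF21B cytosine against its distance in bases from the first base of the core (horizontal axis), for hippocampus and blood with sGC or saline, with Wilson 95% bars; upward triangles are plus-strand and downward triangles minus-strand cytosines, and the core is shaded. The control hippocampus lies between 0% and 6.93%, the sGC hippocampus between 8.60% and 18.0%, and both blood pools lie at or above 53.8%.

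The plot of KIF21B levels by position shows 2 bands, one per tissue, each with the sGC points above the control points. At the cytosine with the largest hippocampal difference, 21373692 on the plus strand, 0 of 127 reads were methylated in controls and 20 of 125 with sGC, a difference of 16.0 points. The count of 0 allows a level of up to 2.36% by counting error. Blood at this cytosine had 72 of 96 reads methylated in controls and 99 of 100 with sGC. The smallest hippocampal difference, 5.72 points, was at 21373605 on the minus strand, with 5.10% in controls and 10.8% with sGC. Blood at 21373605 was 77.5% and 91.2%.

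The largest blood difference of the KIF21B core, 28.8 points, was at 21373604 on the plus strand, the partner cytosine of 21373605 in the same CpG. It was 65.7% in control blood and 94.5% in sGC blood, against 1.30% and 11.3% in the hippocampus. The first cytosine of the core, 21373527, had the smallest blood difference, 12.2 points, and the lowest blood levels, 53.8% in controls and 66.0% with sGC. Its hippocampal levels were 1.16% and 8.84%. The last cytosine, 21373718, was 3.15% in controls and 18.0% with sGC in the hippocampus, and 78.7% and 94.1% in blood. The most covered cytosine, 21373677 on the minus strand, had 166 to 206 reads per pool. It was 6.93% and 17.0% in the hippocampus and 79.5% and 93.9% in blood. First, last and most covered cytosine thus had the same order of the 4 pools.

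By the two-sided Fisher exact test per cytosine, adjusted over all cytosines of the tissue and with a difference of at least 5 points, 8 of the 22 core cytosines of KIF21B were called higher with sGC in the hippocampus and 18 of 22 in blood. Over all cytosines, 0.0729% were called higher in the hippocampus and 0.192% in blood. Because the same contrast chose the interval, nothing is read from these counts. Under a test with an assumed dispersion of 0.05 between animals, 0 of 22 were called in either tissue. This dispersion was a chosen setting, as the pools do not allow an estimate. The study's own test, with batch as a covariate, had called the 12 named cytosines in both tissues. At an unadjusted p under 0.05 the Fisher exact test gave 22 in the hippocampus and 21 in blood. The shares above are for adjusted calls, and those for the unadjusted threshold are not given here.

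NAV1 had the same arrangement of the tissues, with a smaller difference between treatments in blood and differences that were not shared by all of its core. The core was 10.8% (8.49 to 13.7) methylated in control hippocampus and 19.2% (16.2 to 22.6) in sGC hippocampus. In blood it was 84.7% (80.5 to 88.2) in controls and 95.5% (93.2 to 97.1) with sGC. The pools had the same order as at KIF21B, and the counting intervals did not overlap. The difference sGC less control was 8.36 points (4.23 to 12.5) in the hippocampus and 10.8 points (6.61 to 15.3) in blood. Coverage at the NAV1 core was lower than at KIF21B, with 29 to 180 reads per cytosine and pool.

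Within the NAV1 core, 15 of 20 cytosines were higher with sGC in the hippocampus and 17 of 20 in blood, but only 12 were higher in both. The other 8 differed in opposite directions between the tissues, and 0 of them was called in either tissue by the adjusted Fisher exact test. At 4 minus-strand cytosines, 20824121, 20824147, 20824150 and 20824154, the sGC pool was lower in the hippocampus and higher in blood. All 4 were among the 14 cytosines that the study named as changed in both tissues. The study's own test, with batch as a covariate, had thus called them. The lowest hippocampal difference was at 20824154, the last of the core, with 18.5% in controls and 9.26% with sGC, while blood was 90.0% and 98.5%. At 3 plus-strand cytosines, 20824120, 20824149 and 20824153, the sGC pool was higher in the hippocampus and lower in blood. The lowest blood difference, -9.84 points, was at 20824120, with 98.3% in controls and 88.5% with sGC, while the hippocampus was 11.9% and 16.1%. The remaining one, 20824097 on the plus strand, differed by -0.493 points in the hippocampus and 0.769 in blood.

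**Figure D2:**
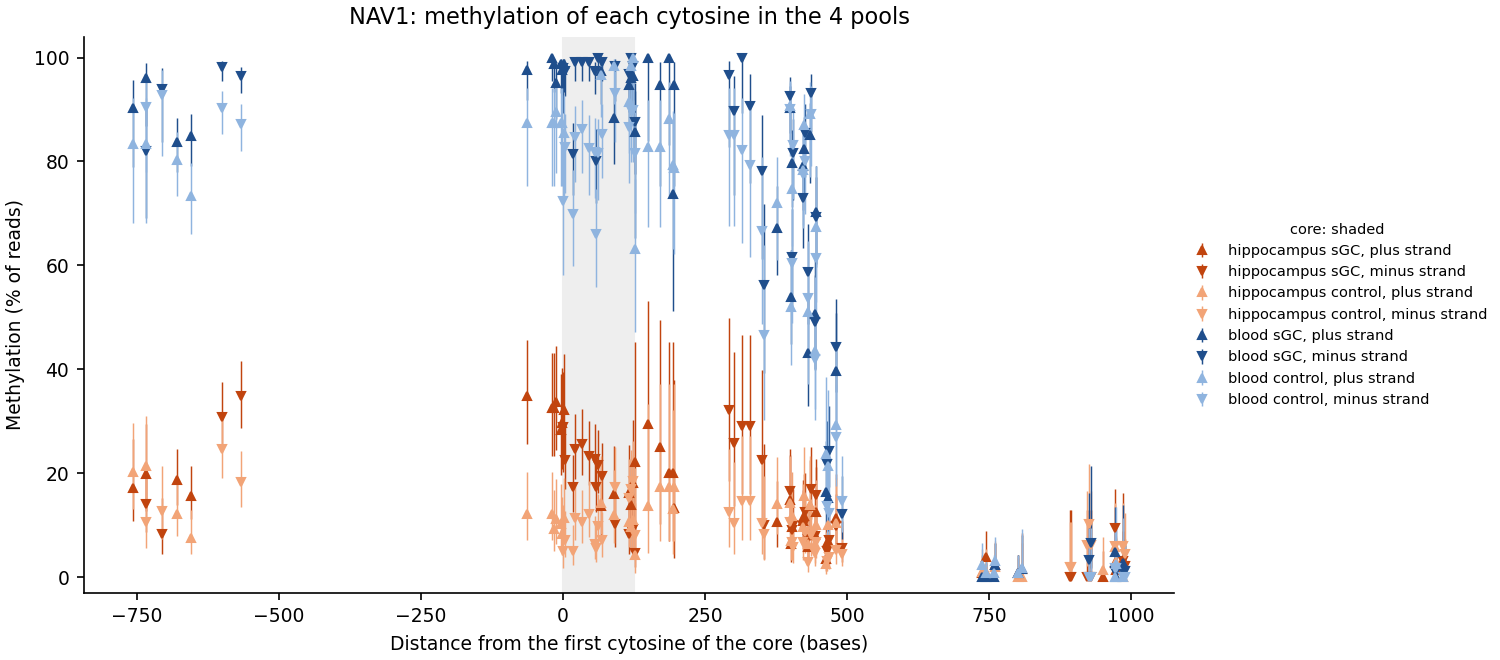
Methylation in percent (vertical axis) of each NAV1 cytosine against its distance in bases from the first base of the core (horizontal axis), for hippocampus and blood with sGC or saline, with Wilson 95% bars; upward triangles are plus-strand and downward triangles minus-strand cytosines, and the core is shaded. Blood lies above the hippocampus before and within the core, falls after it, and meets the hippocampus near 0% in the last cluster, where the summed levels are 1.33% to 3.01%.

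The differences at NAV1 varied with the position and the strand of the reads, as the plot of NAV1 levels shows. On the minus strand, a run of 9 cytosines from 20824033 to 20824098 that was read from largely the same molecules was 8.39% methylated in control and 21.6% in sGC hippocampus. Its difference was 13.2 points (5.33 to 20.7) in the hippocampus and 14.7 points (5.86 to 24.3) in blood, where it was 80.1% in controls and 94.8% with sGC. The next minus-strand run, 5 cytosines from 20824121 to 20824157, was 15.3% in control and 8.33% in sGC hippocampus, a difference of -6.93 points (-15.3 to 1.64). In blood the same run was 88.3% and 96.3%, a difference of 7.99 points (-1.75 to 18.8). The intervals of the second run included 0 in both tissues.

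On the plus strand of NAV1, a run of 7 cytosines from 20823967 to 20824032, which lay mostly before the core, was 10.7% in control and 32.0% in sGC hippocampus, a difference of 21.3 points (9.41 to 32.9). Blood there was 87.5% and 98.1%, a difference of 10.6 points (1.79 to 22.9). The plus-strand run of 4 cytosines from 20824097 to 20824149 differed by 3.35 points (-7.15 to 13.8) in the hippocampus and -2.09 points (-10.2 to 6.93) in blood. The plus strand of the core as a whole differed by 0.344 points in blood and the minus strand by 13.7 points. The minus strand held 14 of the 20 cytosines and all of those named in the study's table.

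Neighbouring cytosines of NAV1 that were read from the same molecules differed in level. In sGC blood, 20824048 was 81.5% and 20824089 was 80.0%, while the other 7 cytosines of the same minus-strand run were 97.4% to 100%. In control blood these cytosines were 69.9% and 66.0%, below the other 7 as well. The largest differences of the core were both at 20824030 on the minus strand, the first of the core, where 47 to 83 reads were counted. It was 5.09% and 28.9% in the hippocampus and 72.3% and 98.0% in blood. At the most covered cytosine, 20824098 on the minus strand with 95 to 180 reads, the hippocampus was 7.09% and 19.4% and blood was 85.3% and 99.2%.

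By the Fisher exact test, 1 of 20 core cytosines of NAV1 was called higher in the hippocampus, against the 0.0729% of all cytosines, and 5 of 20 in blood, against 0.192%. All 6 calls were in the minus-strand run from 20824033 to 20824098, and 0 of the 67 cytosines outside the core was called in either tissue. With the assumed dispersion of 0.05 between animals, 0 of 20 were called in either tissue. The study's own test had called the 14 named ones in both tissues. At an unadjusted p under 0.05 the Fisher exact test gave 11 in the hippocampus and 13 in blood for the core. Outside the core the unadjusted count was 10 of 67 in each tissue. The shares of 0.0729% and 0.192% are for adjusted calls and do not apply to the unadjusted counts. As for KIF21B, the interval was selected on this contrast and the counts are given without weight.

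**Figure D3:**
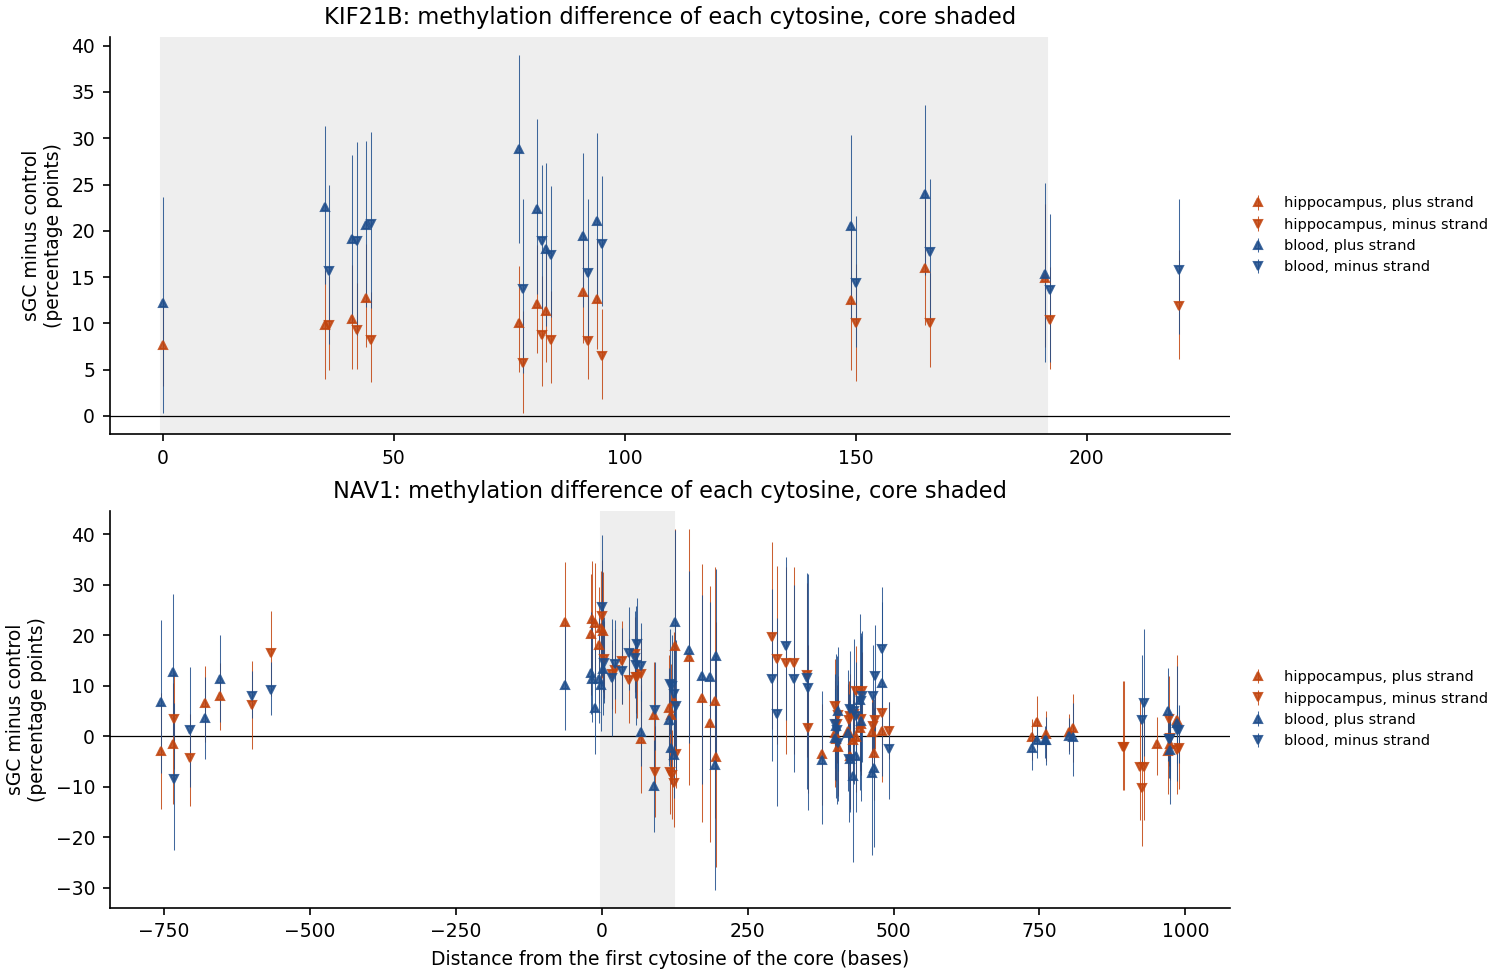
Difference sGC less control in percentage points (vertical axis) of each cytosine against its distance in bases from the first base of the core (horizontal axis), for KIF21B and NAV1 in hippocampus and blood, with Newcombe 95% bars. All 22 KIF21B core cytosines lie above 0 in both tissues, and at NAV1 15 of 20 lie above 0 in the hippocampus and 17 of 20 in blood.

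The rule used the sGC contrast and not the difference between the tissues, but it was applied to the same 4 pools, and sites of the same table mostly shared the tissue difference. The values below are therefore a description, and no p is given for them. Of the 34 genes with at least 3 named sites in the study's table, 32 were higher in blood in controls, 24 of them by at least 50 points, and 23 were higher by at least 50 points with sGC. At all 22 core cytosines of KIF21B blood was called higher than the hippocampus, in controls and with sGC, by the two-sided Fisher exact test adjusted over all cytosines listed in both tissues. Over all those cytosines, 16.0% were called higher in blood in controls and 16.7% with sGC. Blood less hippocampus was 73.5 points (70.2 to 76.4) in controls and 82.0 points (79.4 to 84.2) with sGC. At NAV1 all 20 core cytosines were called in both treatments. The gap at NAV1 was 73.9 points (68.8 to 78.1) in controls and 76.3 points (72.2 to 79.7) with sGC. With the assumed dispersion between animals all 22 and all 20 were still called. Over all cytosines, that test called 365313 of 2564116 in either direction in controls and 384919 with sGC. Of all cytosines listed in both tissues, 2.86% were higher in blood by at least 50 points in controls, and 22 of 22 and 20 of 20 were so in the cores. A gap of at least 50 points was thus common among the genes of the study's table and is not particular to KIF21B and NAV1.

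The tissue gap extended outside the NAV1 core on both sides and ended further along after it. The 14 cytosines before the core were 14.3% and 24.7% in control and sGC hippocampus and 85.2% and 93.4% in blood, and all 14 were called higher in blood in both treatments. The 53 cytosines after the core were 7.03% and 8.72% in the hippocampus and 42.8% and 45.4% in blood, and 35 were called in controls and 37 with sGC. Among them, blood was higher at all 32 from 20824322 to 20824522, by 50.3 points in controls and 50.1 points with sGC. On the minus strand, between 20824430 and 20824494, control blood fell from 90.1% to 13.8% and sGC blood from 92.6% to 21.7%. The hippocampus was 10.6% and 3.05% at these cytosines in controls.

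The fall was neither smooth nor confined to that stretch of the minus strand. In the minus-strand run before it, from 20824322 to 20824384, the lowest level was 46.67% in control and 56.25% in sGC blood. After it, the minus-strand cytosine of the CpG at 20824510 was 26.97% and 44.35%. In control blood 20824433 was 60.6% between 90.1% at 20824430 and 83.1% at 20824435 on the same strand, and 20824466 was again 89.1%. From 20824767 to 20825019 a last cluster of 14 cytosines was unmethylated in both tissues. It was 3.01% and 2.55% in the hippocampus and 1.33% and 1.38% in blood, and 0 of the 14 was called between the tissues. At an unadjusted p under 0.05 the exact test gave 0 of the 14 between tissues in controls, 2 with sGC, and 0 for sGC against control in either tissue. A cluster of 8 cytosines at the other end, from 20823274 to 20823463, was 16.3% and 21.7% in the hippocampus and 84.3% and 91.2% in blood.

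KIF21B offered little to compare with its core. Its 2 outer cytosines, 21373719 and 21373747, were 2.18% and 13.3% in the hippocampus and 80.2% and 94.9% in blood, close to the core. The nearest listed cytosine before the interval lay 6384 bases from it and was 1.37% in control and 1.42% in sGC hippocampus, and 0% in control and 0.685% in sGC blood. The nearest one after it lay 9445 bases away and was 69.7% and 66.7% in the hippocampus and 93.75% and 93.5% in blood. For NAV1 the nearest cytosine before the interval, 4377 bases away, was 29.4% and 33.3% in the hippocampus and 91.7% and 93.3% in blood, from 12 to 17 reads. The nearest one after the interval, 5180 bases away, was 85.5% and 91.1% in the hippocampus and 94.0% and 92.4% in blood.

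Both strands of a CpG were compared in each pool. The rule used no difference between strands, although the values that named the sites were those of the plus strand at KIF21B and of the minus strand at NAV1. KIF21B had 11 CpGs listed on both strands and NAV1 had 24, and 0 of them was called unequal in any pool by the two-sided Fisher exact test adjusted over all such CpGs of the pool. Of all CpGs, 1.73% were called in sGC hippocampus, 1.47% in control hippocampus, 1.18% in sGC blood and 1.15% in control blood. At an unadjusted p under 0.05 the exact test gave 0, 0, 1 and 0 CpGs of KIF21B and 1, 0, 2 and 1 of NAV1, in that order of pools. The shares of all CpGs above are for adjusted calls and do not apply to these counts. The median size of the difference between strands was 1.28 to 3.52 points at KIF21B and 2.17 to 5.56 points at NAV1. At KIF21B the plus strand was the higher one at 11 of 11 CpGs in sGC hippocampus, 4 of 11 in control hippocampus, 5 of 11 in sGC blood and 2 of 11 in control blood. At NAV1 it was the higher one at 13, 16, 7 and 17 of 24 CpGs, in the same order of pools. Neighbouring CpGs share reads and the sites were named on 1 strand of each gene, so nothing is read from these counts.

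The strands were then set side by side for the difference sGC less control. At KIF21B both strands differed in the same direction at 11 of 11 CpGs in the hippocampus and at 11 of 11 in blood. At NAV1 they did so at 9 of 24 CpGs in the hippocampus and 11 of 24 in blood. Most of the 24 lay outside the core, some of them in the unmethylated last cluster with differences near 0. With both cytosines in the core, the strands differed in the same direction at 1 of 6 CpGs of NAV1 in the hippocampus and 3 of 6 in blood, and at 10 of 10 CpGs of KIF21B in each tissue. At the CpG of 20824120 and 20824121 the plus strand differed by 4.19 points in the hippocampus and -9.84 in blood, and the minus strand by -7.08 and 5.22. Neighbouring CpGs were read from the same molecules, so these CpGs are not separate observations. At NAV1, those of 20824120, 20824146 and 20824149 set the plus-strand run from 20824097 against the minus-strand run from 20824121. The hippocampal intervals of both runs, given above, included 0. No test was made of the difference between the genes.

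**Figure D4:**
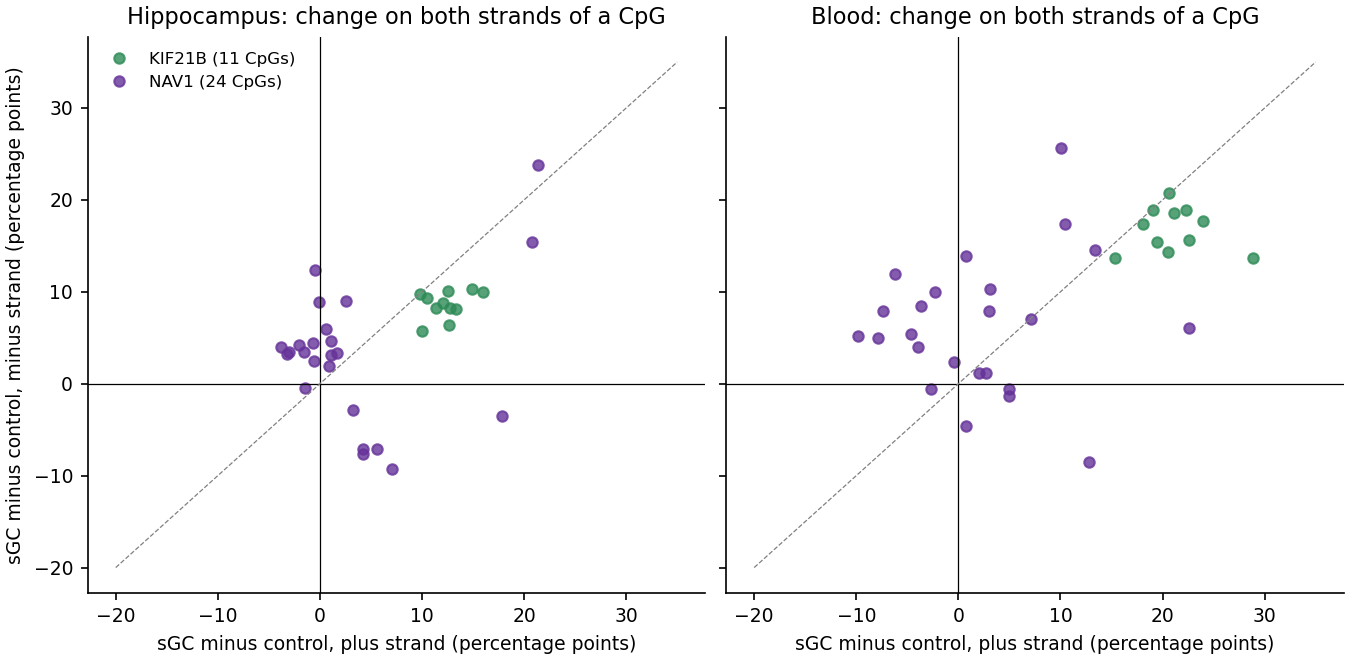
Difference sGC less control in percentage points on the minus strand (vertical axis) against the plus strand (horizontal axis) of each CpG of KIF21B and NAV1 listed on both strands, in hippocampus and blood; the dashed line marks equal differences. The 11 KIF21B CpGs have both differences above 0 in both tissues, whereas 9 of 24 NAV1 CpGs in the hippocampus and 11 of 24 in blood have the same sign on both strands.

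The reads behind the pools were not equal between treatments. Over all listed cytosines, summed coverage in the hippocampus was 302474482 with sGC and 273684449 in controls. In blood it was 323883199 and 269116901. Summed coverage of the KIF21B core in the sGC pool was 1.01 times that of the control pool in the hippocampus and 1.24 times in blood, and at the NAV1 core it was 1.14 and 1.27 times. The part of coverage or of the share of each animal in these differences was not tested.

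The levels of both cores were set beside those of all cytosines with a like tissue pattern, taken as a mean of at most 20% in the hippocampus and at least 60% in blood. These were 20715 cytosines, 0.808% of those listed in both tissues, and they held 21 of the 22 core cytosines of KIF21B and 19 of the 20 of NAV1. Their median difference sGC less control was 5.06 points in the hippocampus and 6.60 points in blood, against 0.667 and 0.449 points for all cytosines. The median over the KIF21B core was 10.0 and 18.9 points, and over the NAV1 core 11.4 and 12.3 points. Of the cytosines with this pattern, 61.4% were higher with sGC in both tissues, against 31.9% of all, 22 of 22 in the KIF21B core and 12 of 20 in the NAV1 core. The class includes the cores and shares their pools. The cores were chosen by the sGC contrast and the class was not, so nothing is read from how the cores differed from it.

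Among 34 genes with at least 3 named sites in the study's table, likeness was measured as the distance between the levels in the 4 pools, in percentage points. The genes most like KIF21B were AGAP2 at 9.27, RXRA at 10.6 and ATP2B4 at 11.2. Those most like NAV1 were NFIA at 4.11, ATP2B4 at 4.92 and RXRA at 7.25. NAV1 ranked 5 for KIF21B, at 14.5, and KIF21B ranked 12 for NAV1. AGAP2 had 1.57% and 15.3% in the hippocampus and 81.7% and 92.4% in blood over 13 sites. All these genes were in the table because of the same contrast, and the distance says only that their levels were close.

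Of a list of 40 other genes of kinesins, microtubule-associated and microtubule end-binding proteins, 2 had a position in that table, or 5.0% of the list. The table names 61 genes, 0.284% of the 21478 protein-coding genes that RefSeq lists for the guinea pig, and the list was chosen with earlier results known, so nothing is read from this share. KIF6, another kinesin, had 3 sites on scaffold DS562870.1, at 33990842, 33990867 and 33990910. Their summed level was 38.4% and 51.7% in the hippocampus and 75.8% and 91.3% in blood, so that the hippocampus was higher than at either core. DPYSL2, which binds tubulin and acts in axon growth, had 1 site at 62619386 of DS562856.1, with 17.9% and 38.0% in the hippocampus and 82.9% and 96.75% in blood. These sites too were in the table because of the sGC contrast. By the Fisher exact test, 0 of the 4 was called higher with sGC in the hippocampus, where 0.0729% of all cytosines were, and 1 of 4, at 33990842, in blood, where 0.192% were. Blood was called higher than the hippocampus at 4 of 4, against 16.0% of all cytosines in controls and 16.7% with sGC, and most genes of the table had that direction.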

How the data were processed

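The authors sequenced 75-base RRBS reads, trimmed them with Trim Galore and aligned them with Bismark 0.16.0 to cavPor3; SAMtools 1.7 is also named in the submitters' processing notes. For each tissue they deposited the methylated read counts and the total coverage of single cytosines, as 1 sum per group of 6 animals; the lowest coverage in the tables was 10 reads. The deposited tables also hold 1 column of the authors' own adjusted p-values, which was not used.

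Levels are methylated counts over coverage. The core is the span of the sites named for a gene in the study's supplementary table, on both strands, and flanks are the remaining interval. Summed levels are the methylated counts over the coverage, each added over all cytosines of a set. Only their intervals took as reads the median coverage of each run of at most 75 bases with similar coverage, added over the runs. Two-sided Fisher exact tests with Benjamini-Hochberg adjustment over the whole table (adjusted p below 0.05, at least 5 points) were run in Python 3.11.15 with numpy 2.4.6, numba 0.67.0, pandas 2.3.3 and scipy 1.17.1, and tested on simulated data. Figures used matplotlib 3.10.9. Clusters are runs with gaps of at most 200 bases. Single cytosines were named when first or last of the core, highest or lowest in difference, most covered, or opposite between tissues; other cytosines were named after their values were seen. Alternatives varied the test, minimum coverage, weighting, core limits, strand and minimum difference. The members, gene list and thresholds were chosen with earlier results of these data known. No sequences are printed, as a genome of this build was not used here.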

Additional observations from a re-analysis of the deposited data

How the results depend on the processing

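No paired analysis was possible because the columns hold sums over the 6 animals of a group, and for the same reason leaving out single animals was not run. Of 188 alternative values, 165 kept their call or moved within counting error. Among these, 3 small values of core less flanks changed sign: NAV1 control hippocampus from 1.73 to -0.345 points with gaps of up to 200 bases, and, on the minus strand alone, KIF21B control hippocampus from -0.177 to 0.146 and sGC blood from -0.846 to 0.347 points. For the KIF21B core, the sGC tissue gap was 84.5 points on the minus strand alone. For NAV1, taking the whole cluster with gaps of up to 200 bases gave 5.92 points for sGC less control in blood and tissue gaps of 62.0 points in controls and 61.4 points with sGC. The plus strand alone gave 0.344 points in blood and a control gap of 83.35 points. NAV1 core less flanks, 37.1 points in sGC blood and 30.6 points in control blood, became 40.9 points in sGC blood at 50 or more reads, 42.3 points with gaps of at most 50 bases, and 42.4 points in control blood on the plus strand. Calls for sGC in the hippocampus fell from 8 to 0 at KIF21B and from 1 to 0 at NAV1, with the assumed dispersion and also with a minimum of 20 points. With strands summed KIF21B had 11 and NAV1 had 2, and by chi-square KIF21B had 6. In blood KIF21B went from 18 to 0 with dispersion, 8 at 20 points and 11 with strands summed, and NAV1 from 5 to 0 with dispersion and at 20 points. The counts of 0 at 20 points were fixed by the size of the differences. In the hippocampus the largest was 16.0 points in the KIF21B core, and the called NAV1 cytosine differed by 16.35 points. The NAV1 cytosines called in blood differed by at most 18.3 points. Summing strands leaves fewer features: 12 at KIF21B and 13 at NAV1 were called between tissues in both treatments. Over all cytosines, calls fell with dispersion from 3213 to 283 in the hippocampus and from 9286 to 428 in blood. For the other changes the cause was not tested. Precision was limited by 29 reads at the least covered core cytosine and by pooling.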

Other observations

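Of the 92 NAV1 cytosines, 5 were listed in 1 tissue only, all in the unmethylated last cluster. In the hippocampus alone, 20824923 and 20824925 on the minus strand were 2.04% in controls and 0% with sGC, and 20824952 was 6.12% and 0%, each from 49 and 26 reads. At 20824981 on the plus strand the hippocampus was 1.45% and 0%, from 69 and 71 reads. With 0 of 26 reads a level of up to 11.5% remains possible by counting error. In blood alone, 20824789 on the plus strand was 0.775% in controls and 0% with sGC.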
